A study of Mus musculus with 2 samples.

Results

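The genes described here encode the machinery that copies DNA and the cyclins, kinases and nucleotide enzymes that carry a cell into S phase. They were 47 genes chosen by name, and their members are the array probes whose gene name in the deposited scanner files equals one of these 47 symbols. All 47 were on the array, with 69 of its 41174 distinct gene probes, among 28090 gene names in all. The arrays came from a study of regulatory T cells (Tregs), the Foxp3-expressing lymphocytes that hold immune responses in check, with and without Bcl11b, a zinc finger protein that controls transcription in T cells. In the Cd4Cre system, sorted Bcl11b-deficient Foxp3-GFP Tregs of Bcl11bF/F/Cd4Cre/Foxp3-GFP+ mice were set against sorted Foxp3-GFP Tregs of wild-type mice. In the Foxp3Cre system, sorted Bcl11b-deficient Tregs of Bcl11bF/F/Foxp3Cre mice were set against sorted wild-type Tregs. All were on the C57BL\6 background, and no age was given. Cd4Cre deletes the floxed gene in all T cells from the CD4-expressing thymocyte onward, and Foxp3Cre deletes it only once Foxp3 is expressed. Each system was measured on a single 2-colour array of 60-base probes, with deficient RNA in Cy5 and wild-type RNA in Cy3 on both, so dye and genotype cannot be told apart. Each wild-type pool came from 3 mice, and the number of mice behind the deficient pools was not given in the sources used here. The array whose labels name the Foxp3-GFP reporter is taken as the Cd4Cre array.

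DNA replication starts when the origin recognition complex, Cdc6 and Cdt1 load the MCM helicase onto origins. Cyclin E with Cdk2, and Cdc7 kinase, then activate the helicase together with Cdc45 and the GINS complex, and polymerases copy both strands behind it with the sliding clamp PCNA. Many of these genes are transcribed by E2F factors and are low in resting lymphocytes. Tregs are known to divide more in the animal than most other CD4 T cells.

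Levels below are normalized log2 signals of a gene's brightest probe in each pool, and are not comparable between genes. Deficient and wild type are compared through the ratio on 1 array. An order of a gene's pools across arrays or dyes is open to array and dye effects and is only described. Ratios are log2 of deficient over wild type, so a positive ratio means more signal in the deficient pool, and the error given with a ratio is the scanner software's for 1 array. This error was between 0.20 and 0.37 over the detected members and leaves out the spread between mice. With 1 array per Cre system the values on each array have no replicate check and carry no test. In bulk RNA, fewer cells of a kind and less RNA per cell cannot be told apart.

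The arrays held 43379 gene-probe spots each. In the deficient channel 21773 spots on the Cd4Cre array and 20689 in the Foxp3Cre system were well above background, against 24439 and 23446 in the wild-type channel. Bcl11b was at 13.09 in deficient and 15.55 in wild-type cells on the Cd4Cre array, a ratio of -2.46, and at 13.14 and 14.95 in the Foxp3Cre system, a ratio of -1.82. Whether its probe lies in the deleted part of the gene was not given in the sources used here. Foxp3 itself was at 8.93 in the Cd4Cre deficient pool and 12.50 in its wild-type pool, and at 9.82 and 10.02 in the Foxp3Cre pools, so the defining marker of the labelled cell type was lower in 3 pools than in the Cd4Cre wild-type pool. On the Cd4Cre array 7 of 9 Treg markers in the deficient pool were lower by 2-fold or more, with a summed linear signal of 73153 against 257060, and in the Foxp3Cre system none was, with 89748 against 89343. All 7 neutrophil markers were at least 2-fold higher on both arrays, with summed signals of 246233 against 2801 and of 164383 against 36160. All 7 NK cell markers were at least 2-fold higher in the Cd4Cre system, summing to 320439 against 18865, and 1 of 7 was in the Foxp3Cre system, 50259 against 37452. Of the plasma cell markers, 3 of 4 were at least 2-fold higher in the Cd4Cre system (127637 against 18190) and 0 of 4 in the Foxp3Cre system (57024 against 44569), and of the CD8 markers 2 of 2 and 0 of 2 were (63073 against 25892, and 56766 against 56039). All 7 pan-T cell markers were below 0 on the Cd4Cre array, 2 of them at 2-fold (366563 against 665222), and 5 of 7 in the Foxp3Cre system (386918 against 517271). Their median ratios were -0.90 and -0.20. With each array only centred on its median they were -0.13 and 0.35, so the direction in the Foxp3Cre system depended on the scaling. B cell markers were at least 2-fold higher in 2 of 5 detected on the Cd4Cre array (65128 against 23626) and in 0 of 5 in the Foxp3Cre system (70615 against 71625). Monocyte and macrophage markers were split, 2 of 6 higher and 2 lower on the Cd4Cre array (265716 against 66413), and 0 higher and 1 lower in the Foxp3Cre system (132665 against 130038). Of 3 detected mast cell markers, 1 was higher on the Cd4Cre array (3573 against 1383) and 2 in the Foxp3Cre system (2663 against 813). Among these lists, Pax5 of the B cell list and Ms4a2 of the mast cell list were undetected on both arrays. The part of these cells in the values of the replication genes was not tested. Below, deficient and wild-type Tregs name the pools as they were sorted and labelled, whatever cells they held.

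On the Cd4Cre array, replication genes as a group were higher in the Bcl11b-deficient pool. All 47 were detected, and 23 of them (48.9%) were at least 2-fold higher in the deficient pool, where 11.4% of the 15915 detected genes were. Pold1 alone was at least 2-fold lower, 2.13% of the members, where 10.6% of all detected genes were. The median ratio of the members was 0.97, against -0.05 for all detected genes. Above 0 lay 43 of 47 members (91.5%), where 47.2% of all detected genes did.

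After the loess fit, the members in the Foxp3Cre system lay close to all other genes, and after median centring alone they lay above them. Of 46 detected members, Ccne2 alone (2.17%) was at least 2-fold higher, where 2.97% of 15230 detected genes were. At least 2-fold lower were 6 members (13.0%), namely Mcm2, E2f2, Cdc25a, Lig1, Cdt1 and Mcm3, where 11.5% of all detected genes were. Both shares lay near those of all genes after loess. The median ratio was 0.11, against -0.08 for all detected genes. Above 0 lay 25 of 46 members (54.3%), where 45.4% of all detected genes did. These counts depended on the scaling of bright probes. With each array only centred on its median, and not fitted by loess, the median member ratio was 1.40 on the Cd4Cre array and 0.61 in the Foxp3Cre system. In the Cd4Cre system 32 members (68.1%) were then at least 2-fold higher, where 18.0% of all detected genes were, and 0 were lower, where 8.33% were. In the Foxp3Cre system 12 members (26.1%) were at least 2-fold higher, where 13.5% of all detected genes were, and 1 (2.17%) was lower, where 6.74% were. Of the 6 lower after loess, Cdc25a stayed past 2-fold at -1.09, while Mcm2 was at -0.94, E2f2 at -0.60, Lig1 at -0.52, Cdt1 at -0.43 and Mcm3 at -0.32. The same centring moved the median of all detected genes by 0.12 and 0.25.

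**Figure D1:**
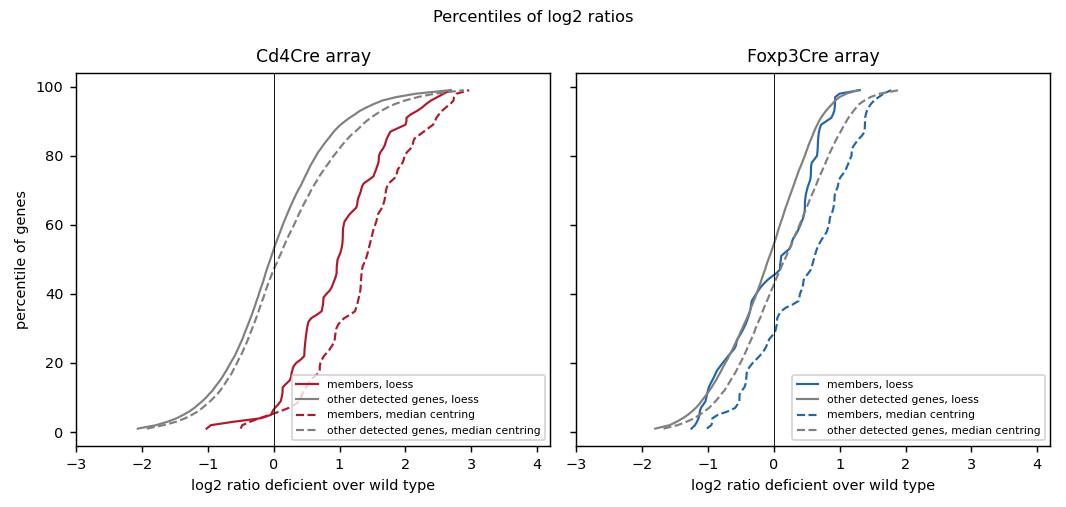
Percentiles of the log2 ratio of deficient over wild-type signal on each array, for the members (colour) and the other detected genes (grey), after loess (solid) and after median centring alone (dashed). On the Cd4Cre array the members' median was 0.97 after loess and 1.40 after centring; in the Foxp3Cre system the loess curve of the members, median 0.11, ran close to that of the other genes, and the centred one, median 0.61, lay to its right.

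The enzymes that supply deoxynucleotides had the highest median of any role on the Cd4Cre array after loess. All 5 were at least 2-fold higher in Cd4Cre deficient Tregs, with a median ratio of 1.68. In the Foxp3Cre system all 5 lay above 0, median 0.52, none of them at 2-fold after loess. Under median centring the medians were 2.58 and 1.27. Dut (1.49), Rrm2 (1.42) and Tyms (1.27) then passed 2-fold in the Foxp3Cre system, and Rrm1 (0.92) and Tk1 (0.90) did not. With the scanner software's own ratio the factors that activate the helicase had the highest Cd4Cre median, 1.88, against 1.71 for nucleotide supply. Rrm2, the regulated subunit of ribonucleotide reductase, was at 14.42 in deficient and 11.63 in wild-type Tregs of the Cd4Cre system, and at 13.46 and 12.53 in those of the Foxp3Cre system. Its ratio of 2.79 ± 0.34 (6.91-fold) was the highest of the members on the Cd4Cre array, against 0.93 ± 0.23 (1.90-fold) on the other. The Cd4Cre wild-type pool thus had the lowest Rrm2 signal of the 4 and the Cd4Cre deficient pool the highest. Rrm1, the large subunit of the same enzyme, had ratios of 1.27 and 0.26.

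Tyms, thymidylate synthase, was at 15.45 in deficient and 13.43 in wild-type Tregs on the Cd4Cre array, and at 14.56 and 14.04 in the Foxp3Cre system. Dut, which hydrolyses dUTP and so keeps uracil out of DNA, was at 16.12 and 14.44 on the Cd4Cre array (3.20-fold) and at 15.26 and 14.69 in the Foxp3Cre system (1.48-fold). Tk1, the S-phase thymidine kinase of the salvage pathway, was at 14.51 and 12.91 on the Cd4Cre array (3.03-fold) and at 13.03 and 12.58 in the Foxp3Cre system (1.37-fold). In each of these 3 genes the deficient pool was above its own wild-type pool on both arrays.

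The Tyms probe sequences are shown because 2 of its probes share most of their target. Capitals mark the 40 bases they have in common, which differ at 1 position, C17A, counted from the 5′ end of the first probe with that probe's base given first. The first probe lies at chr5:30387605-30387664 on the minus strand of mm9, and the second maps over 894 bases at chr5:30387625-30388518, so it crosses an intron.
Tyms probe 1: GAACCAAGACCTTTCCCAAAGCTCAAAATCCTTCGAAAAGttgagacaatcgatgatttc
Tyms probe 2: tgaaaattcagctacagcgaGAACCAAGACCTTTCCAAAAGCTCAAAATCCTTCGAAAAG
These probes gave ratios of 2.02 and 1.99 on the Cd4Cre array and of 0.52 and 0.51 in the Foxp3Cre system. A further Tyms probe, above background in the deficient channel only, gave 1.09 on the Cd4Cre array, with a bound of at least 1.60-fold higher. Across the 15 members with at least 2 detected probes, the ratios of a gene's probes spanned a median of 0.34 on the Cd4Cre array and 0.20 in the Foxp3Cre system, with a largest span of 0.92, which rests on the dim Tyms probe. In the Foxp3Cre system the largest span was 0.55, in Cdc25a. Pcna, spotted repeatedly with 1 probe, gave 0.867 ± 0.068 over 8 spots on the Cd4Cre array and 0.681 ± 0.075 over 10 in the Foxp3Cre system (SD, spots of 1 array).

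**Figure D2:**
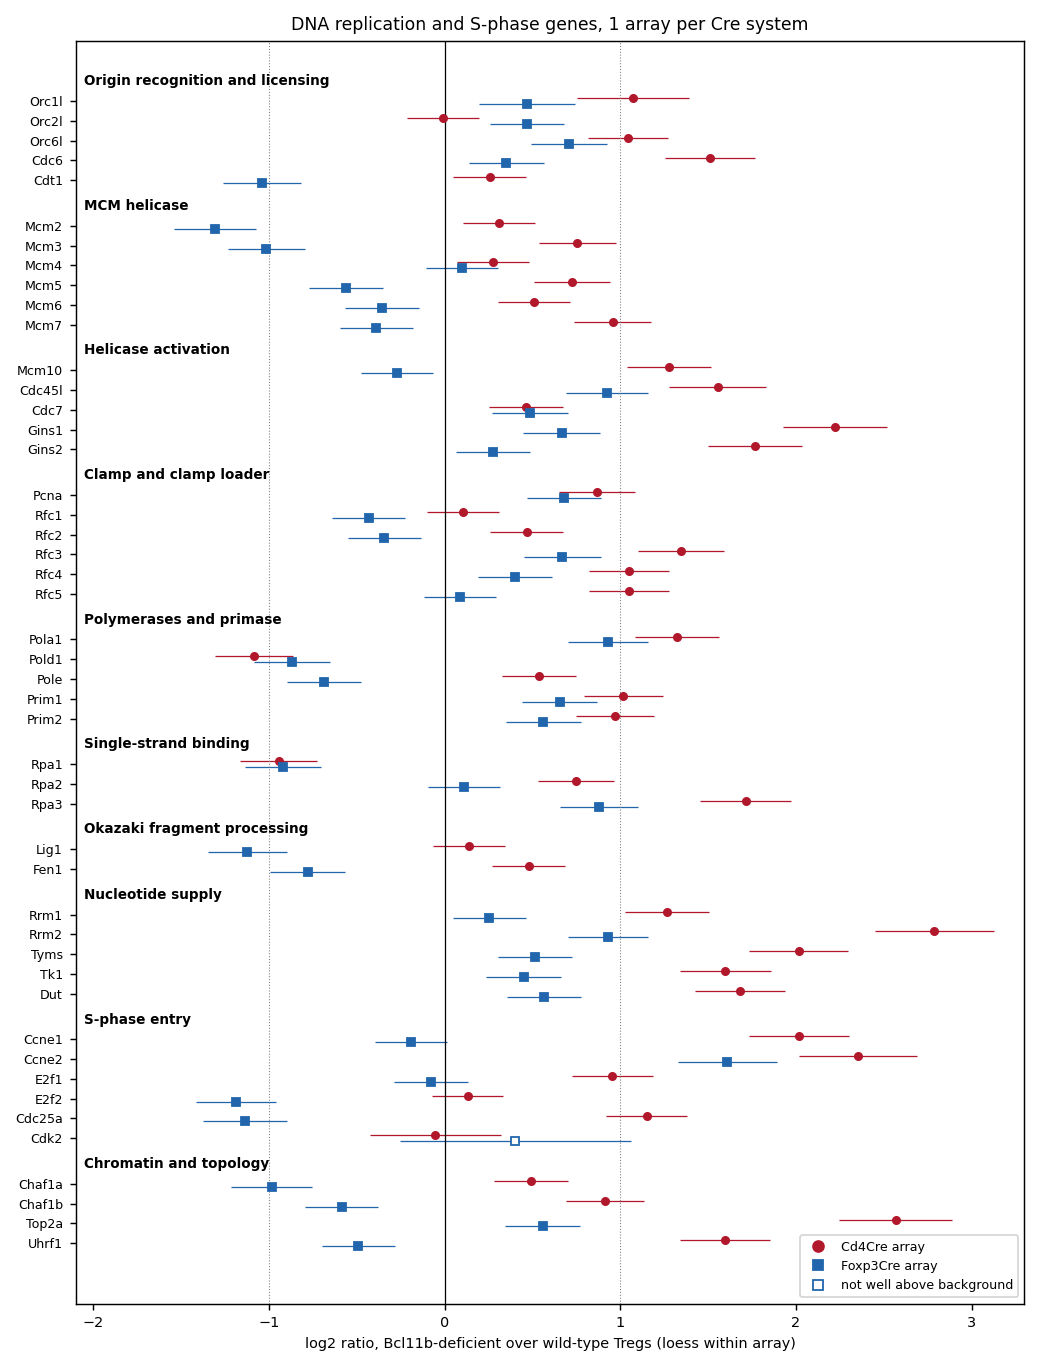
Log2 ratio of deficient over wild-type signal for each of the 47 genes by role, on the Cd4Cre array (red circles) and the Foxp3Cre array (blue squares); bars are the scanner software's error for 1 array and dotted lines mark 2-fold. All 5 nucleotide supply genes lie above 0 on both arrays, while 5 of 6 MCM subunits lie right of 0 in red and left of 0 in blue, a Foxp3Cre direction that held for 2 of 6 under median centring.

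Licensing factors were mostly higher in Cd4Cre deficient Tregs: 3 of 5 were at least 2-fold higher there, with a median ratio of 1.04, against a median of 0.47 and 1 of 5 at least 2-fold lower in the Foxp3Cre system. Cdc6, the ATPase that loads MCM together with the origin recognition complex, had the highest ratio of the 5 on the Cd4Cre array, 1.51, and stood at 0.35 in the Foxp3Cre system. Orc1l and Orc6l, subunits of the origin recognition complex, were at 1.07 and 1.04 on the Cd4Cre array and at 0.47 and 0.71 in the Foxp3Cre system. Orc2l, a further subunit, was at -0.01 and 0.47. Cdt1, the loading factor that geminin inhibits, was the only one of the 5 below 0 in the Foxp3Cre system, also under median centring. It was at 14.11 in deficient and 13.85 in wild-type Tregs of the Cd4Cre system, and at 13.08 and 14.12 in those of the Foxp3Cre system (2.05-fold lower).

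The 6 subunits of the MCM helicase, the motor that unwinds DNA, all lay above 0 on the Cd4Cre array, between 0.27 for Mcm4 and 0.96 for Mcm7, with a median of 0.62 and none at 2-fold. Under median centring that median was 1.39, and 5 of 6 were at least 2-fold higher. On the Foxp3Cre array 5 of 6 lay below 0, with a median of -0.47, but under median centring that median was 0.39 and 2 of 6 lay below 0. Mcm2 was at 12.57 in deficient and 12.26 in wild-type Tregs on the Cd4Cre array, and at 11.65 and 12.96 in the Foxp3Cre system. Its ratio of -1.31 ± 0.23 (2.47-fold lower) was the lowest of the members in the Foxp3Cre system, and stayed lower, at -0.94, under median centring. Mcm3 was at 14.14 and 13.39 on the Cd4Cre array and at 13.50 and 14.52 in the Foxp3Cre system (2.02-fold lower). Its ratio there was -0.32 under median centring, -0.87 with the software's own ratio, -0.92 with the GC trend removed and -0.97 with offset 10, so it was lower under each of these but not at 2-fold.

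For both genes the Foxp3Cre wild-type pool had the highest signal of the 4. The lowest was the Foxp3Cre deficient pool for Mcm2 and the Cd4Cre wild-type pool for Mcm3. A second Mcm3 probe, which maps over 517 bases at chr1:20795363-20795879 on the minus strand of mm9 and crosses an intron, gave 0.48 on the Cd4Cre array and -1.41 in the Foxp3Cre system, against 0.76 and -1.02 for the brightest probe. It is shown because it repeated the opposite signs at another place in the transcript.
Mcm3 second probe: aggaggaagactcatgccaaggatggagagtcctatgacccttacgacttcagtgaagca
Mcm5 had ratios of 0.73 on the Cd4Cre array and -0.56 in the Foxp3Cre system, Mcm6 0.51 and -0.35, and Mcm7 0.96 and -0.39. Mcm4 was the exception, at 0.27 and 0.10.

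Of the factors that turn the loaded helicase on, 4 of 5 were at least 2-fold higher in the Cd4Cre system, with a median ratio of 1.56, against 0.49 and none at 2-fold in the Foxp3Cre system. The medians under median centring were 1.58 and 0.59. Gins1, a GINS subunit, was at 13.24 in deficient and 11.02 in wild-type Tregs on the Cd4Cre array (4.67-fold), and at 12.23 and 11.57 in the Foxp3Cre system (1.59-fold). Gins2, of the same complex, was at 12.23 and 10.46 on the Cd4Cre array (3.41-fold) and at 10.62 and 10.35 in the Foxp3Cre system (1.21-fold). Cdc45l, which joins MCM and GINS in the active helicase, was at 10.45 and 8.89 on the Cd4Cre array (2.94-fold) and at 10.46 and 9.54 in the Foxp3Cre system (1.90-fold). In Cdc45l the deficient pools were level and the wild-type pools differed. Mcm10, needed to start unwinding, had ratios of 1.28 and -0.27, and Cdc7, the kinase that phosphorylates MCM, 0.46 and 0.49.

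Of the clamp and its loader all 6 lay above 0 on the Cd4Cre array, median 0.96, and 4 of 6 in the Foxp3Cre system, median 0.24. The clamp loader subunits Rfc3, Rfc4 and Rfc5 were at least 2-fold higher in the Cd4Cre system, at 1.35, 1.05 and 1.05, against 0.67, 0.40 and 0.09 in the Foxp3Cre system. Rfc1, the large subunit, and Rfc2 stood lower, at 0.10 and 0.47, against -0.43 and -0.34. Under median centring their Foxp3Cre ratios were 0.05 and 0.62, so those signs depended on the scaling. All 6 genes of the clamp and its loader then lay above 0 in the Foxp3Cre system, with a median of 0.76. Pcna, the sliding clamp, had ratios of 0.87 and 0.68, and of 2.11 and 1.89 under median centring. For the polymerases and primase the medians were 0.97 and 0.56, and 1.23 and 1.08 under median centring. Primase and the alpha polymerase, which lay down the primers, had like values: Prim1 had 1.02 and 0.66, and Prim2 0.97 and 0.56. Pola1, the catalytic subunit of polymerase alpha, was at 12.54 in deficient and 11.22 in wild-type Tregs on the Cd4Cre array (2.50-fold), and at 13.27 and 12.34 in the Foxp3Cre system (1.91-fold). Pole, the catalytic subunit of the leading-strand polymerase epsilon, had 0.54 and -0.69. Under median centring Pola1 (1.38), Prim1 (1.18) and Prim2 (1.08) passed 2-fold in the Foxp3Cre system, and Pole (-0.42) stayed below 0.

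Pold1, the catalytic subunit of polymerase delta, was lower in both deficient pools. It was at 13.50 in deficient and 14.58 in wild-type Tregs of the Cd4Cre system (2.12-fold lower), and at 12.39 and 13.26 in those of the Foxp3Cre system (1.82-fold lower). On each array the deficient pool was below its wild-type pool, although the Cd4Cre deficient pool exceeded the Foxp3Cre wild-type pool. A pair of Pold1 probes that each cross an intron is shown because they read different stretches of the transcript with like ratios. The first maps over 369 bases at chr7:51788221-51788589 and the second over 131 bases at chr7:51788621-51788751, both on the minus strand of mm9.
Pold1 probe 1: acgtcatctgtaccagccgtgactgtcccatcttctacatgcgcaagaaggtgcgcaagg
Pold1 probe 2: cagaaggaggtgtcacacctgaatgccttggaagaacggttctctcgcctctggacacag
They gave ratios of -1.08 and -1.02 on the Cd4Cre array and of -0.87 and -1.14 in the Foxp3Cre system. Under median centring the first probe's ratios were -0.47 and -0.41, still below 0 but within 2-fold.

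The subunits of RPA, which coats single-stranded DNA at the fork, lay apart from each other. Rpa1, the large subunit, was at 12.76 in deficient and 13.70 in wild-type Tregs on the Cd4Cre array (1.92-fold lower), and at 13.65 and 14.57 in the Foxp3Cre system (1.89-fold lower). Rpa3, the small subunit, was at 13.27 and 11.56 on the Cd4Cre array (3.28-fold higher) and at 13.49 and 12.61 in the Foxp3Cre system (1.84-fold higher). Rpa2, the middle subunit, had ratios of 0.75 and 0.11. Rpa1 and Pold1 were the only members below 0 on both arrays, and both remained below 0 on both under median centring.

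Okazaki fragment enzymes were the lowest group in the Foxp3Cre system, with a median ratio of -0.95, and -0.52 under median centring, against 0.31 on the Cd4Cre array. Lig1, the ligase that joins the fragments, was at 14.12 in deficient and 13.99 in wild-type Tregs of the Cd4Cre system, and at 13.02 and 14.14 in those of the Foxp3Cre system (2.18-fold lower). Its deficient and wild-type signals on the Cd4Cre array differed by less than the software error. Fen1, the flap nuclease that trims the fragments, had ratios of 0.48 and -0.78.

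Among the genes that bring cells into S phase, 3 of 6 were at least 2-fold higher in the Cd4Cre system, median 1.05. On the Foxp3Cre array 1 was higher and 2 were lower of 5 detected, with a median of -0.19 that was 0.02 under median centring. Ccne2 was at 11.07 in deficient and 8.72 in wild-type Tregs on the Cd4Cre array (5.12-fold), and at 10.47 and 8.86 in the Foxp3Cre system (3.05-fold). Its second probe gave 1.73 on the Cd4Cre array and 1.56 in the Foxp3Cre system, against 2.36 and 1.61 for the first. Both deficient pools stood above both wild-type pools. Ccne1, the other cyclin E, was at 14.45 and 12.44 on the Cd4Cre array (4.05-fold) and at 13.31 and 13.50 in the Foxp3Cre system, a ratio of -0.19 that was within the software error and was 0.38 under median centring.

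Cdc25a, the phosphatase that activates Cdk2, had the largest difference between the systems, 2.29. It was at 12.12 in deficient and 10.97 in wild-type Tregs of the Cd4Cre system (2.22-fold higher), and at 9.24 and 10.37 in those of the Foxp3Cre system (2.20-fold lower). Its second probe gave 1.71 and -0.59, so the signs were the same and the Foxp3Cre ratio was smaller. E2f2 was at 15.01 and 14.88 on the Cd4Cre array and at 12.91 and 14.10 in the Foxp3Cre system (2.28-fold lower). E2f1, the other activating E2F here, had ratios of 0.96 and -0.08. Cdk2, the kinase partner of cyclin E, lay near background: its brightest probe was at 7.98 in deficient and 8.04 in wild-type Tregs on the Cd4Cre array, where only the wild-type channel was well above background, a bound of at least 1.04-fold lower. On the Foxp3Cre array this probe, at 7.88 and 7.48, was not well above background in either channel, and Cdk2 is counted as undetected there. Its other probe was well above background in both Foxp3Cre channels, at 8.29 in deficient and 7.84 in wild-type Tregs, a ratio of 0.45 against a software error of 0.43, and in neither channel on the Cd4Cre array.

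All 4 chromatin and topology genes lay above 0 on the Cd4Cre array, median 1.25, and 3 of 4 lay below 0 in the Foxp3Cre system, median -0.54, and -0.10 under median centring. Top2a, the topoisomerase that untangles sister DNA, was at 13.24 in deficient and 10.67 in wild-type Tregs on the Cd4Cre array (5.92-fold), and at 12.51 and 11.96 in the Foxp3Cre system (1.47-fold). Its second probe gave 2.18 and 0.77, against 2.57 and 0.56 for the first. Uhrf1, which brings the maintenance methyltransferase to newly copied DNA, was at 13.39 and 11.80 on the Cd4Cre array (3.02-fold higher) and at 12.31 and 12.80 in the Foxp3Cre system (1.40-fold lower). Chaf1a, the large subunit of the histone chaperone CAF-1, was at 10.91 and 10.42 on the Cd4Cre array and at 9.31 and 10.29 in the Foxp3Cre system (1.98-fold lower). Chaf1b, of the same chaperone, had 0.91 and -0.59.

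**Figure D3:**
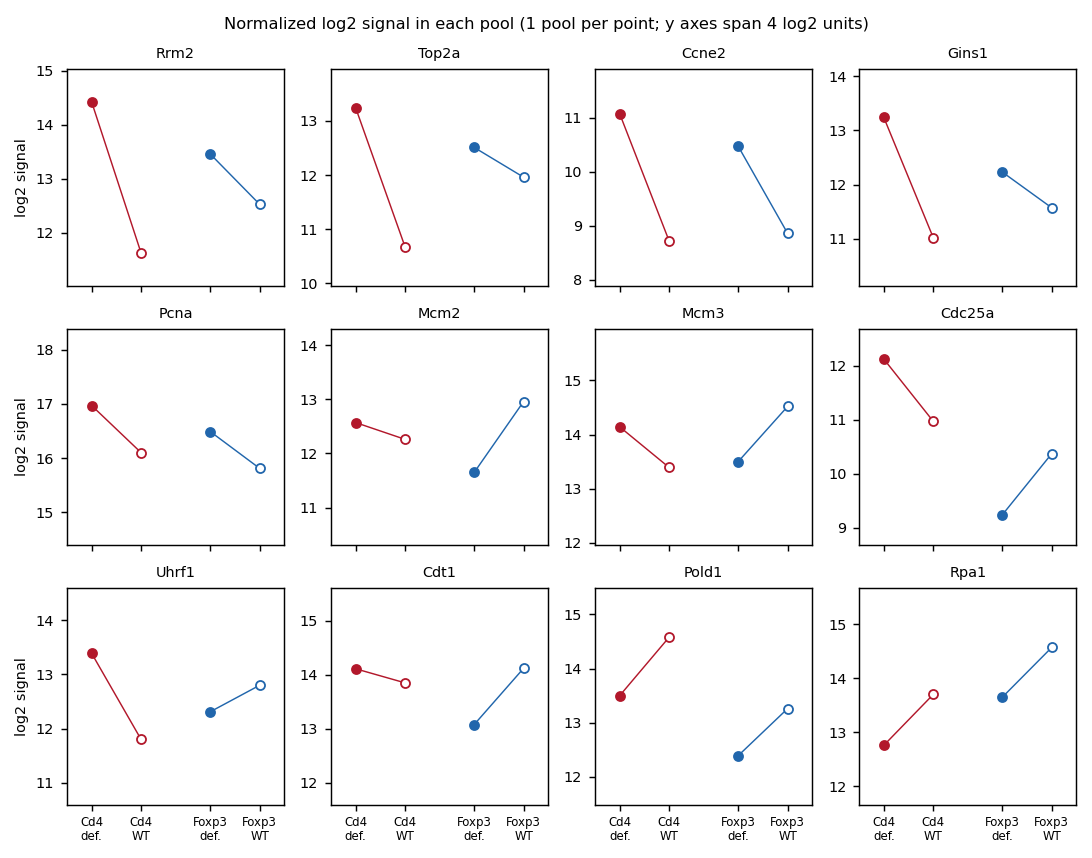
Normalized log2 signal of 12 of the genes in each of the 4 pools, deficient (filled) left of wild type (open), Cd4Cre system in red and Foxp3Cre system in blue; each point is 1 pool and has no replicate. Rrm2, Top2a, Ccne2, Gins1 and Pcna were higher in the deficient pool in both systems, Pold1 and Rpa1 lower in both, and Mcm2, Mcm3, Cdc25a, Uhrf1 and Cdt1 higher in one and lower in the other, as they also were under median centring.

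Set side by side, 24 of the 46 members detected on both arrays were above 0 on both, 19 were above 0 on the Cd4Cre array and below 0 in the Foxp3Cre system, 1 (Orc2l) was the reverse, and 2 were below 0 on both. In 5 of the 19 (Rfc1, Lig1, Ccne1, E2f1 and E2f2) at least 1 ratio was within its software error. Under median centring 11 members had this pair of opposite signs. How often all genes detected on both arrays had each pair of signs was not counted. Taken array by array, 47.2% of all detected genes lay above 0 on the Cd4Cre array and 45.4% in the Foxp3Cre system. The ratio was higher on the Cd4Cre array in 42 of 46 members (91.3%), and in 57.9% of the 14411 genes detected on both. That count was also 42 under median centring, with the scanner software's own ratio, and after removing the trend with probe GC content. The median difference between the arrays was 1.07 for the members and 0.14 for all genes, and it was not tested. Members high on one array tended to be high on the other: the correlation across the 46 genes was 0.65 (Pearson; Spearman 0.64), against 0.48 across all genes (Spearman 0.50), where the points share 4 pools and genes are not independent replicates.

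Levels differed between the systems in both genotypes. Comparing the systems within a genotype, the deficient signal was higher in the Foxp3Cre than in the Cd4Cre pool in 9 of 46 members, with a median Foxp3Cre minus Cd4Cre difference of -0.75, against -0.12 for all genes. The wild-type signal was higher in the Foxp3Cre than in the Cd4Cre pool in 35 of 46 members, with a median difference of 0.35, against 0.08 for all genes. So the Cd4Cre deficient pool was the higher of the deficient pools and the Cd4Cre wild-type pool the lower of the wild-type ones for most members. Array, sort and Cre system cannot be told apart in this comparison.

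**Figure D4:**
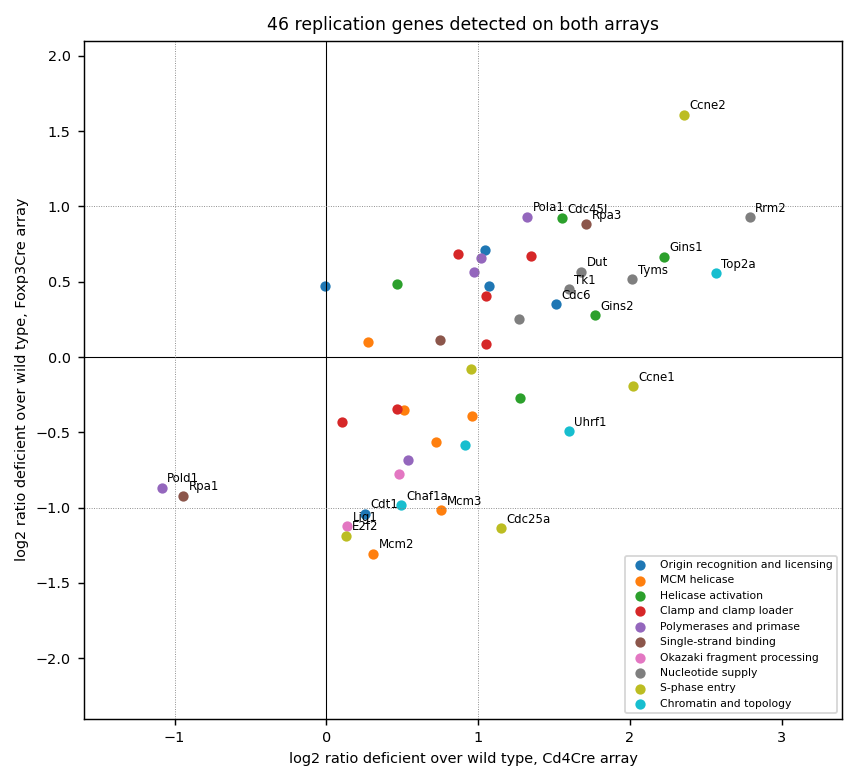
Log2 ratio of deficient over wild type in the Foxp3Cre system against that on the Cd4Cre array for the 46 genes detected on both, coloured by role, with dotted lines at 2-fold. Of these genes 19 lie in the lower right (11 under median centring), 24 in the upper right, and Pold1 and Rpa1 in the lower left.

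The mean of both arrays was the only contrast with a replicate, each Cre system counting as 1 sample. In the limma fit with Benjamini-Hochberg adjustment over 14411 genes, 0.0% of genes and so 0 members had an adjusted p under 0.05, while 3246 genes had an unadjusted p under 0.05. Ccne2, with a mean ratio of 1.98 ± 0.35 (SE, 2 arrays), and Rrm2, with 1.86 ± 0.46, had the lowest limma adjusted p of the members, 0.105 each. At an unadjusted p under 0.05, 16 members (34.8%) were higher, where 8.47% of all genes were, and 2, Pold1 and Rpa1, were lower, where 14.1% of all genes were. Pold1 had a mean of -0.98 and Rpa1 of -0.93. Under median centring the limma fit called 311 genes, 4 of which were members: Ccne2, Dut, Pcna and Rrm2. With probes required to be above background in both channels of both arrays it called 30 genes and 0 members.

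Other genes of the pathway, which were not among the 47, had lower ratios in the Cd4Cre system. Of 46 further replication genes, all detected, 15 were at least 2-fold higher and 0 lower in deficient Tregs of the Cd4Cre system, with a median ratio of 0.65. After loess 3 were higher and 2 lower in the Foxp3Cre system, median 0.28. The shares of all detected genes were 11.4% higher and 10.6% lower on the Cd4Cre array, and 2.97% and 11.5% in the Foxp3Cre system. The medians under median centring were 0.92 and 0.78. Dtymk, thymidylate kinase, had 2.15 on the Cd4Cre array and 0.59 in the Foxp3Cre system. Dscc1, of an alternative clamp loader, had 1.82 and 1.11, and Asf1b, a histone chaperone, 1.75 and 0.28. On the Foxp3Cre array the 3 higher genes were Hells (1.17), Dscc1 and Pole2 (1.02), and the 2 lower ones were Dnmt1 (-1.34), the maintenance methyltransferase, and Timeless (-1.16), of the fork protection complex. Hells, Pole2, Dnmt1 and Timeless were singled out after their values were seen.

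Of 19 E2F, pocket protein and cyclin genes, 5 were at least 2-fold higher and 1 lower in the Cd4Cre system after loess. In the Foxp3Cre system 0 were higher and 1 lower. Of all detected genes, 11.4% were higher and 10.6% lower on the Cd4Cre array, and 2.97% and 11.5% in the Foxp3Cre system. Under median centring Ccna2 (1.57) and Fbxo5 (1.02) were at least 2-fold higher there. Ccnd1, the cyclin D1 gene, had 2.16 and 0.56, and Ccna2, cyclin A, 1.65 and 0.90. Ccnd2, cyclin D2, was the gene at least 2-fold lower on each array after loess, at -1.14 and -1.02. Under median centring it was at -0.10 and 0.07, so its lower values depended on the scaling. It is named after its values were seen. All 11 mitosis genes were above 0 in the Cd4Cre system, 10 passing 2-fold, with a median of 1.76. In the Foxp3Cre system 8 were above 0, 2 at 2-fold, with a median of 0.35. Under median centring the medians were 1.98 and 1.22, so the Foxp3Cre count at 2-fold held only after loess. Birc5, the mitotic survivin gene, had 2.67 and 0.74, and Aurkb, aurora kinase B, 2.24 and 0.33. CDK inhibitors, which hold cells out of S phase, were also at least 2-fold higher in the Cd4Cre system in 4 of 7, with Cdkn2b at 1.42, Cdkn2d at 1.07 and Cdkn2c at 1.02. In the Foxp3Cre system 4 were detected, 3 of them below 0, with a median of -0.16 that was 0.62 under median centring. Cdkn2a, at 10.17 in deficient and 6.87 in wild-type Tregs, was above background in 1 channel on the Cd4Cre array and in none in the Foxp3Cre system.

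Promoter sequence was examined because many replication genes are known E2F targets. Windows of 300 bases, 250 before and 50 after the gene start, came from RefSeq on GRCm38.p6 and were matched to 40 of 47 members, all but Mcm4, Gins1, Gins2, Rfc2, Pole, Prim2 and Ccne2. The E2F forms TTTCCCGC, TTTCGCGC, TTTGCCGC and TTTGGCGC, searched on both strands, occurred in 15 of 40 windows (37.5%) and in 2.6% of the 27025 genes with a window. Matches of different forms may overlap on opposite strands. CCAAT, the NF-Y box, occurred in 26 of 40 (65.0%), against 41.1% of all genes. TTTGAA, the CHR element of mitotic promoters, occurred in 6 of 40 (15%), against 20.2%.

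On the Foxp3Cre array the detected members with an E2F match had a median ratio of -0.53 (14 genes, 10 of them below 0), and those without had 0.40 (25 genes, 9 below 0). On the Cd4Cre array the medians were 0.76 (15 genes) and 1.04 (25 genes). With median centring the Foxp3Cre medians were 0.02 and 0.84, so their order held and the sign of the first did not. Among other detected genes, the Foxp3Cre medians were -0.11 for 442 genes with a match and -0.05 for 9256 without. The other motifs were split in the same way. Detected members with a CHR match had a Foxp3Cre median of -0.15 (6 genes), and those without had 0.09 (33 genes). On the Cd4Cre array the CHR medians were 0.47 (6 genes) and 1.03 (34 genes). Lower medians were thus not particular to E2F matches. For CCAAT the medians with and without a match were 0.11 and 0.01 in the Foxp3Cre system. On the Cd4Cre array they were 0.9876 and 1.0025. A letter match is not a binding site, and E2F binding was not measured here.

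The members with an E2F match that lay below 0 in the Foxp3Cre system were Mcm3, Mcm5, Mcm6, Mcm7, Cdt1, Pold1, Lig1, E2f2, Cdc25a and Uhrf1. Those above 0 were Orc1l, Cdc6, Rfc3 and Pola1. The 250 bases before the start are printed for Mcm5, Mcm6 and Cdc25a, which had matches there and ratios of opposite signs after loess (under median centring Mcm5 and Mcm6 were above 0 in the Foxp3Cre system, at 0.13 and 0.85), and for Rrm2, which had none and stood highest on the Cd4Cre array. Capitals mark E2F matches on either strand, and overlapping matches run together. In order, they lie at chr8:75109259-75109508 (plus strand), chr1:128359706-128359955 (minus), chr9:109875329-109875578 (plus) and chr12:24708004-24708253 (plus) of GRCm38.p6.
Mcm5: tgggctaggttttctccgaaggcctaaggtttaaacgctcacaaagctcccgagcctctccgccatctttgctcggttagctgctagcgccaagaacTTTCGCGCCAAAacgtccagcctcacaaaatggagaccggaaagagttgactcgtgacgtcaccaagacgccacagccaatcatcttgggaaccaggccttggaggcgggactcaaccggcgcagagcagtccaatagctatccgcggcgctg
Mcm6: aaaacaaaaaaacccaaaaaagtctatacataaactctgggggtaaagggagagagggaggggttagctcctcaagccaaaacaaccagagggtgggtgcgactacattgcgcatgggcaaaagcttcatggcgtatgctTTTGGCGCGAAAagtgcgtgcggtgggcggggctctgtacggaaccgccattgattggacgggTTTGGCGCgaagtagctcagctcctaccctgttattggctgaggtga
Cdc25a: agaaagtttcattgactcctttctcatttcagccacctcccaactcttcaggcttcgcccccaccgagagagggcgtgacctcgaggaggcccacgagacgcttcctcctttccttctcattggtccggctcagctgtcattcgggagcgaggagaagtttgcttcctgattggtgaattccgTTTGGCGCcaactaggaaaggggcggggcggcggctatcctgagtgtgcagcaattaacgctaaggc
Rrm2: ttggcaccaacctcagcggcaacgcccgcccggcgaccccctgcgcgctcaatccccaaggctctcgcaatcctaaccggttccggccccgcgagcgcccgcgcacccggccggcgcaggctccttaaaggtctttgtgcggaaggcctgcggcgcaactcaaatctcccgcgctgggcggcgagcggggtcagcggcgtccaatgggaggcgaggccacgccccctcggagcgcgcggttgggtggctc
The first match in Mcm5 began 153 bases before the start and ran into a second on the other strand. In Mcm6 the matches began at 110, 106 and 47 bases before the start, and in Cdc25a at 67.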

How the data were processed

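Expression in sorted Tregs was measured on 2 Agilent 2-colour arrays. The extract was amplified and labelled by the Kreatech ULS method, per the labels' protocols. Per spot, the authors deposited mean and background intensity in both channels, a log10 ratio of Cy5 to Cy3 made by the scanner software, the p-value of that ratio, its error (named here as a score) and flags. The scanner software was Agilent Feature Extraction 10.5.1.1 (Cd4Cre) and 10.7.3.1 (Foxp3Cre), per the file headers, and by 10.5.1, per the submitters' processing notes. The value table the authors deposited held the same log10 ratios (largest difference 0).

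From the deposited intensity columns, limma 3.58.1 under R 4.3.3 corrected the background (normexp, offset 50), fitted loess per array with weight 0 for control spots, and gave per-pool log2 signals after Aquantile scaling. Outlier spots (137 and 155) were left out, and no gene-probe spot was saturated. Each gene took the probe with the highest mean signal of both arrays. It was detected on an array if most spots of that probe carried the software's flag for signal well above background in 1 channel or both. For a dim channel the lowest flagged signal, or its own if higher, took its place, and the fold is then a bound, open to dye bias. Software errors were put on the log2 scale. Probe positions are on mm9, as deposited. Motifs were counted in RefSeq promoter windows.

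Each array was described with no test at 2-fold. The limma fit tested the mean of both arrays against 0 with 1 residual degree of freedom per gene, and was tested on simulated data. The text gives pool values for the 12 members with the largest absolute ratio on each array, the 8 that differ most between arrays, and those at least 2-fold lower or undetected, and up to 4 genes of each other list by size of ratio. A gene this rule selects is counted in its list but not reported here by name. The members, lists, motifs and this rule were chosen with earlier results of these data known. Alternatives were another offset, no background subtraction, median centring, the software's ratio, the value table, the mean over probes, other filters on dim probes, marked spots kept, and a GC correction added after seeing the data.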

Additional observations from a re-analysis of the deposited data

Results flagged for a closer look

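For 14 members the ratio of deficient over wild type lay above 0 on the Cd4Cre array and below 0 on the Foxp3Cre array, each by more than the scanner software's error, and this is why they are listed. With 1 array per Cre system the differences were not tested, and array and Cre system cannot be told apart. How many of all detected genes met the same rule was not counted, so the list has no background share beside it. The difference of log2 ratios, Cd4Cre minus Foxp3Cre, was 2.29 for Cdc25a and 2.09 for Uhrf1. Among helicase genes it was 1.77 for Mcm3, 1.62 for Mcm2, 1.55 for Mcm10, 1.35 for Mcm7, 1.29 for Mcm5 and 0.86 for Mcm6, and for the licensing factor Cdt1 it was 1.30. The CAF-1 subunits Chaf1b and Chaf1a had 1.5 and 1.48, Fen1 had 1.26, Pole 1.22 and Rfc2 0.81. Opposite signs also stood in all 14 with the software's own ratio and with the GC trend removed, and in 9 of 14 under median centring (Mcm2, Mcm3, Cdt1, Pole, Fen1, Cdc25a, Chaf1a, Chaf1b and Uhrf1).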

How the results depend on the processing

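Median centring without loess changed the results most. It put the members' median ratio at 1.40 on the Cd4Cre array, with 0 at least 2-fold lower, and at 0.61 in the Foxp3Cre system, with 12 higher and 1 lower, and the limma fit then called 311 genes and 4 members. The software's own ratio and the authors' deposited value table, which are the same values, each gave 4 members at least 2-fold higher in the Foxp3Cre system. With the GC trend removed, an alternative chosen after seeing the data, 0 members were lower on the Cd4Cre array and 3 in the Foxp3Cre system. Requiring both channels above background on both arrays left fewer genes and gave 30 limma calls. The cause of these changes was not tested, except that the last alternative tests fewer genes. The count of members at least 2-fold higher in the Cd4Cre system lay between 21 and 32 over 11 alternatives, and the count at an unadjusted limma p under 0.05 between 13 and 26. No single-member ratio that was at least 2-fold after loess turned its sign under the alternatives that gave single-member values. Smaller ratios did, such as Mcm5 in the Foxp3Cre system, from -0.56 to 0.13 under median centring. Of 744 values of single members, 650 moved by less than the software error and 94 by more, 66 of these under median centring. No paired analysis was possible because each group has 1 sample. For the same reason no sample could be left out. Dim probes, such as those of Cdk2, are limited by their signal over background.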

Other observations

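Probe GC content was related weakly to the ratios: across members the correlation was -0.23 on the Cd4Cre array and -0.31 in the Foxp3Cre system, against -0.07 and -0.13 across all detected genes, where probes of 1 array share their labelling. E2f1 had a second probe spotted repeatedly, which gave 0.618 ± 0.052 over 9 spots on the Cd4Cre array and -0.329 ± 0.127 over 8 spots in the Foxp3Cre system (SD, spots of 1 array), against 0.96 and -0.08 for the brighter probe.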
